A study of Homo sapiens with 8 samples.

Results

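The genes described here encode the enzymes that load amino acids onto transfer RNA (tRNA) in the cytosol and in the mitochondria, together with the SEPSECS and PSTK enzymes that make selenocysteine on its tRNA. The list held 37 genes by name, of 19752 genes measured in all, and each gene was read from its brightest probe set, by the mean of all 8 arrays, among those assigned to that gene alone. Of these 34 could be measured, 17 cytosolic synthetases, 15 mitochondrial synthetases (names ending in 2) and the 2 selenocysteine enzymes. MARS1, QARS1 and TARS2 were not measured, because each of their probe sets also carried the symbol of a microRNA gene (MIR6758, MIR6890 and MIR6878). The cells were DLD-1, an established line of human colorectal adenocarcinoma cells, grown in high glucose medium with serum. One group was transfected with 50 nM miR-143 duplex, a mimic of the mature microRNA, and the other was mock transfected with the same lipid reagent. Total RNA was taken 24 h after transfection from 4 biological replicates per group, each measured on its own Affymetrix HG-U133 Plus 2.0 array. Duplex was thus compared with no duplex, in 1 cell line, and none of the 8 arrays was of a scrambled control.

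An aminoacyl-tRNA synthetase recognises 1 amino acid and the tRNAs for it, joins them at the cost of ATP, and in several cases edits a wrong product before release. Cytosolic and mitochondrial protein synthesis use separate tRNAs, and most amino acids have a separate nuclear gene for the mitochondrial enzyme. GARS1 and KARS1 are known exceptions, each giving both a cytosolic and a mitochondrial form from a single gene, while EPRS1 joins the glutamate and the proline enzyme in 1 chain. EPRS1, IARS1, KARS1, LARS1, MARS1, QARS1 and RARS1 take part in the multisynthetase complex of the cytosol. Many cytosolic synthetase genes are known targets of ATF4, the transcription factor of the integrated stress response, and mutations of mitochondrial synthetases cause inherited disease.

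A microRNA binds messenger RNA mainly through its seed, bases 2 to 8 from the 5′ end. The mature forms of miR-143 are printed because one of them is the agent of the experiment, with the seed in capitals. They come from RefSeq on GRCh38.p14, from the plus strand of chromosome 5 at chr5:149428978-149428998 for the 3p and chr5:149428944-149428965 for the 5p form.
hsa-miR-143-3p: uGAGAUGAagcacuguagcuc
hsa-miR-143-5p: gGUGCAGUgcugcaucucuggu
The 2 seeds differ. Sites for them in the messenger RNAs were not searched, since no transcript sequences were used here.

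The values are log2 values made by the authors with RMA, and array medians lay between 7.15 and 7.24. Replicate 4 of both groups stood apart. On the leading principal component (66.9% of the variance) their scores were 25.7 with miR-143 and 26.7 in mock, and the other 6 arrays scored −18.8 to −4.25. Of the 34 genes 30 had their highest value in replicate 4 of both groups, and 27 had their lowest miR-143 value in replicate 3. Of 12 markers of colorectal epithelium 10, among them EPCAM, KRT20 and CDX2, lay above the median level of all genes, while LGALS4 and GPA33 lay below it, as did all 3 measured leukocyte markers. Of 6 fibroblast and smooth muscle markers COL1A1 and ACTA2 lay above it (percentiles 62.0 and 53.6), and of 4 endothelial markers PECAM1 did (percentile 51.4). An array reads the pooled RNA of a culture, so fewer cells that express a gene and less RNA per cell cannot be told apart. The level of a probe set also depends on its probes, so levels serve only to place a probe set as bright or dim, and amounts of different genes are not compared.

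Genes of tRNA charging lay slightly lower with miR-143 in most cases, and 5 of them were called lower when arrays with the same replicate number were taken as pairs. These were EARS2, EPRS1, RARS2, YARS1 and SEPSECS, with log2 fold changes (miR-143 minus mock) of −0.55 to −0.25. The labels do not say that arrays of equal number belong together. For numbers 1 and 2 the deviations of the 2 arrays from their groups correlated at only 0.11 and 0.17. For both numbers an array of another number correlated better, at 0.54, so these calls depend on an uncertain pairing. In the main comparison without pairs limma called 0 of the 34 genes at an adjusted p of 0.05, either lower or higher, as it called 0% of all genes in each direction. With pairs limma called 5 of 34 lower and 0 higher, against 0.623% of all genes lower and 0.167% higher. All 34 genes lay above the median level of all genes, and among genes above that level 1.25% were called lower. At an unadjusted p under 0.05 limma without pairs found 5 of 34 lower and 0 higher, against 1.7% and 0.714% of all genes, and with pairs 10 of 34 lower, against 6.92%. Among the 9876 genes above the median level, 299 were lower and 104 higher without pairs, and 1228 were lower with pairs. The 4 miR-143 arrays all lay below the 4 mock arrays in PSTK alone, while 1.24% of all genes did so and 0.719% lay wholly above. EARS2 was the 1 gene of the 5 whose call held with each pair left out in turn.

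Over the whole group 29 of 34 log2 fold changes were negative, with a median of −0.088. Among the cytosolic enzymes 14 of 17 were negative. The median was −0.090 and the range −0.44 to 0.05. Among the mitochondrial enzymes 13 of 15 were negative. Here the median was −0.071 and the range −0.55 to 0.07. Of all genes 55.6% were negative (median −0.0091), and of the genes above the median level 64.3% were (median −0.030). Replicate 4 was high in both groups, so leaving out only 1 of its arrays leaves the other unmatched and moves the medians. Without mock replicate 4 the cytosolic median was 0.027, with 8 of 17 negative, and the mitochondrial one was −0.011, with 9 of 15 negative, while genes above the median level had a median of 0.018. Without miR-143 replicate 4 the medians were −0.198 and −0.148. With replicate 4 of both groups left out they were −0.123 and −0.076. After cyclic loess between the arrays they were −0.029 and −0.046, with 13 of 17 and 13 of 15 negative.

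**Figure D1:**
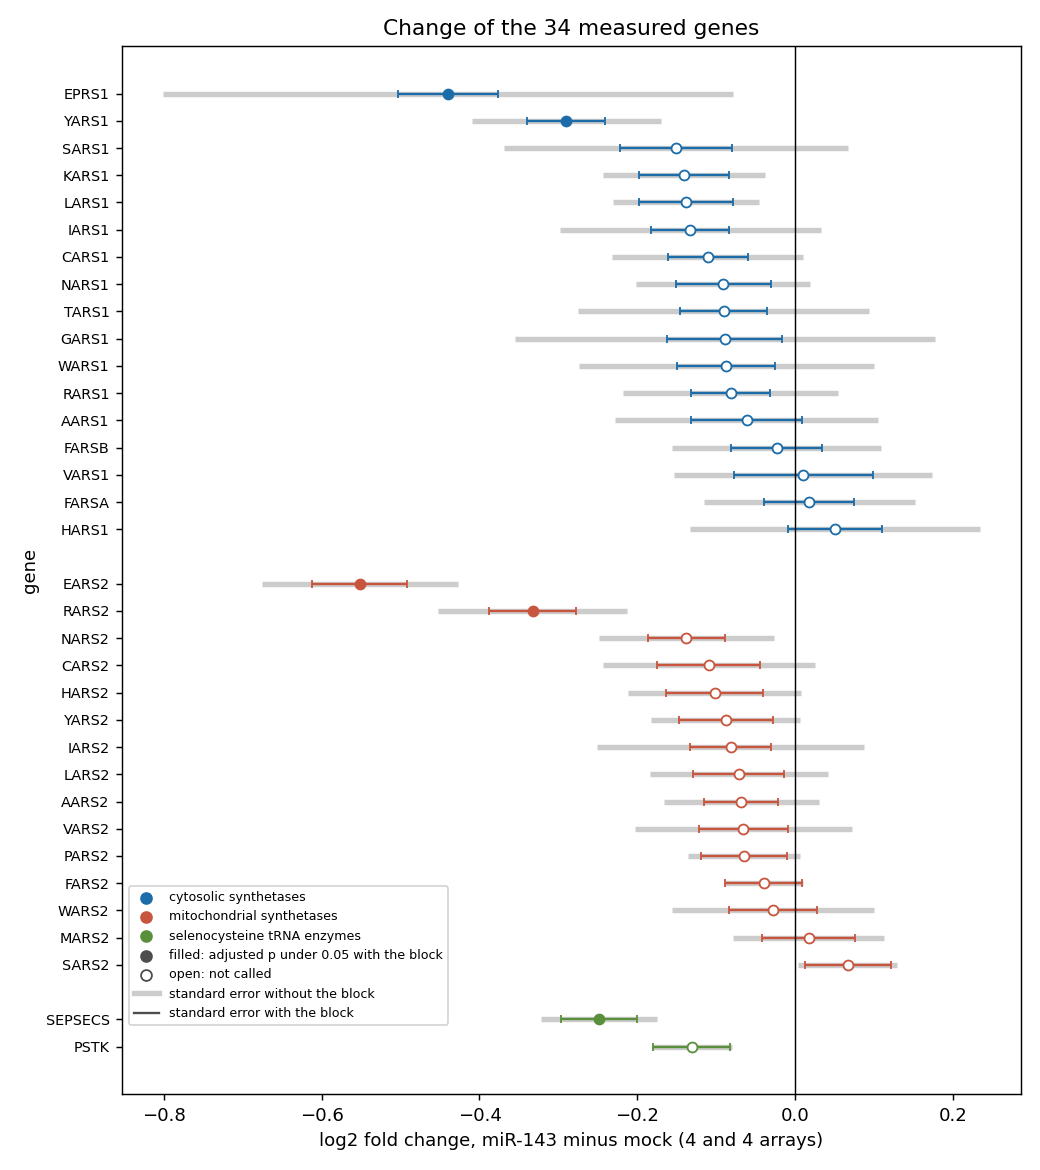
Log2 fold change (x axis) of the 34 measured genes (y axis), by class and in order of size. Thin bars are standard errors with pairs and grey bars without pairs, from limma over 4 and 4 arrays. The 5 filled points are the genes called with pairs, and the grey bar of EPRS1 is the widest.

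In the chosen probe sets, both enzymes that charge tRNA with glutamate lay at the lower end of their class. EARS2, the mitochondrial glutamyl-tRNA synthetase, which also charges the mitochondrial glutamine tRNA with glutamate as a first step, had the lowest log2 fold change of the 34 genes. Its log2 values were 8.76, 8.61, 8.60 and 9.01 in miR-143 replicates 1 to 4 and 9.35, 9.33, 8.98 and 9.51 in mock replicates 1 to 4. The groups overlapped only through miR-143 replicate 4 and mock replicate 3, and each miR-143 array lay below the mock array of its number. The mean was 8.74 ± 0.19 (SD, n = 4) after miR-143, against 9.29 ± 0.22 (SD, n = 4) for mock, which is 68.2% of the mock level. The log2 fold change of EARS2 was −0.55, with a standard error of 0.124 without pairs (adjusted p = 0.611 from limma) and 0.0597 with pairs (adjusted p = 0.0013 from limma). Without pairs limma called it after cyclic loess (adjusted p = 0.0167), with array weights (0.013) and with replicate 4 of both groups left out (0.0454). The other probe sets of EARS2 had log2 fold changes of only −0.14, −0.10 and −0.07. With all its probe sets averaged, the adjusted p from limma with pairs was 0.111.

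EPRS1, the cytosolic enzyme for glutamate and proline, had the lowest log2 fold change of the cytosolic class. Its log2 values were 11.36, 11.01, 10.85 and 12.26 with miR-143 and 11.57, 11.59, 11.31 and 12.76 in mock. Replicate 4 lay far above the other arrays in both groups, and the groups overlapped widely, while each miR-143 array lay below the mock array of its number, with differences of −0.58 to −0.21. The means were 11.37 ± 0.63 (SD, n = 4) and 11.81 ± 0.65 (SD, n = 4), which is 73.7% of mock. The log2 fold change was −0.44, with a standard error of 0.361 without pairs (adjusted p = 1 from limma) and 0.0631 with pairs (adjusted p = 0.0085 from limma). It was −0.12 without mock replicate 4, −0.74 without miR-143 replicate 4, and −0.42 without replicate 4 of both groups. With pairs the call held without pair 1 (adjusted p = 0.0064 from limma) and ended without pair 2, 3 or 4 (0.0715, 0.0587 and 0.0792). The other probe sets of EPRS1 had −0.07, in one about as bright as the chosen one, and −0.35. With all its probe sets averaged, the adjusted p from limma with pairs was 0.111.

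**Figure D2:**
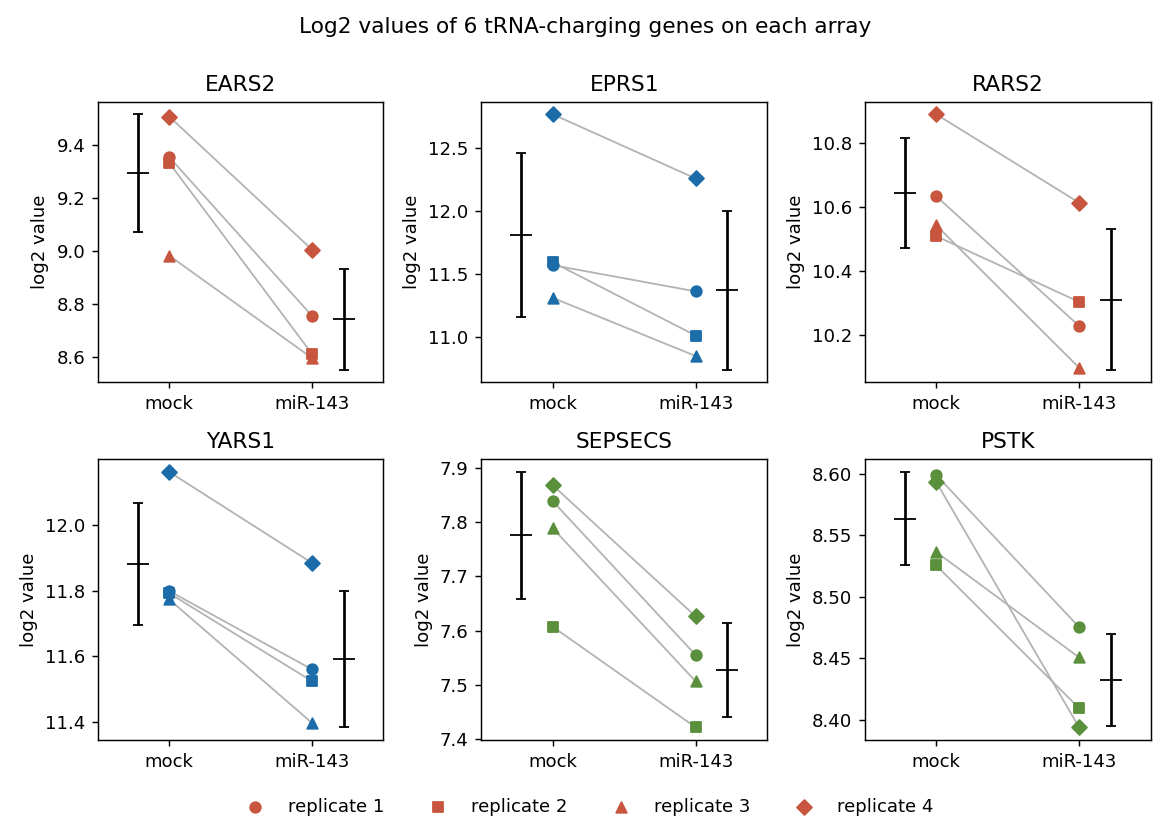
Log2 values (y axis) of 6 genes in mock and miR-143 arrays (x axis). Points are arrays, lines join arrays of the same replicate number, and bars are means ± SD of 4 arrays. The genes are those called lower with pairs, and PSTK, whose groups did not overlap. That all 24 lines point down therefore largely follows from the choice of genes. Replicate 4 is the highest array in both groups for every gene shown but PSTK.

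The promoter windows of these 2 genes are printed because their enzymes charge the same amino acid and their chosen probe sets had the lowest changes of their classes. They span 250 bases before to 50 after the transcription start, from RefSeq on GRCh38.p14, both on the minus strand, at chr16:23557301-23557600 for EARS2 and chr1:220046456-220046755 for EPRS1. Capitals mark an E-box (CACGTG) or the ETS core (CCGGAAG), searched on both strands together with the core of the ATF4 response element (TGATGNAA).
EARS2: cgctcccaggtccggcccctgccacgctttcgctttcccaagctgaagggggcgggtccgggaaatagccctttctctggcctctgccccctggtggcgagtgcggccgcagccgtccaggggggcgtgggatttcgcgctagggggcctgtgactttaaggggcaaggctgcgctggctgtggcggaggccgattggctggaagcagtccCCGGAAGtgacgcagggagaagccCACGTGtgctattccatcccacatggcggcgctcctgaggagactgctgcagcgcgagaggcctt
EPRS1: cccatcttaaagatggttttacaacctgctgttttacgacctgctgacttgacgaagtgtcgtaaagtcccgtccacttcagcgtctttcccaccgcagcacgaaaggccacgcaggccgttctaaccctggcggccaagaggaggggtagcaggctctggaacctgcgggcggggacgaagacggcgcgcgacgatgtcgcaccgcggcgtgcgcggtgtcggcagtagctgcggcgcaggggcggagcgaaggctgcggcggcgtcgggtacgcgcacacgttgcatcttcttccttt
The EARS2 window held an ETS core and an E-box, and the EPRS1 window held none of the 3 motifs. EPRS1 lies at chr1:219968600-220046505 and IARS2, the mitochondrial isoleucine enzyme, at chr1:220094132-220148041, with BPNT1 between them. The log2 fold change of IARS2 was −0.08.

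RARS2, the mitochondrial arginyl-tRNA synthetase, and YARS1, the cytosolic tyrosyl-tRNA synthetase, were the next lowest of their classes. RARS2 had log2 values of 10.23, 10.30, 10.10 and 10.61 with miR-143 and of 10.63, 10.51, 10.54 and 10.89 in mock. Only miR-143 replicate 4 reached into the range of the mock arrays. The means of RARS2 were 10.31 ± 0.22 (SD, n = 4) and 10.64 ± 0.17 (SD, n = 4), and its log2 fold change was −0.33 (standard error 0.0551, limma with pairs, adjusted p = 0.0201). YARS1 had log2 values of 11.56, 11.52, 11.40 and 11.88 with miR-143 and of 11.80, 11.79, 11.77 and 12.16 in mock. Here too only miR-143 replicate 4 overlapped with mock, and the 4 differences by number were close, from −0.38 to −0.24. The means of YARS1 were 11.59 ± 0.21 (SD, n = 4) and 11.88 ± 0.19 (SD, n = 4), and its log2 fold change was −0.29 (standard error 0.0494, limma with pairs, adjusted p = 0.0239). Without pairs the adjusted p from limma was 1 for each. The call of RARS2 held without pair 2 (0.0427) and ended without pair 1, 3 or 4 (0.123, 0.136 and 0.0837), and that of YARS1 ended with any pair left out (0.0893 to 0.16). Without mock replicate 4 the log2 fold change was −0.25 for RARS2 and −0.20 for YARS1.

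Both enzymes of selenocysteine synthesis lay lower with miR-143. Selenocysteine is made on its own tRNA, which is first charged with serine, then phosphorylated by PSTK and converted by SEPSECS. SEPSECS had log2 values of 7.55, 7.42, 7.51 and 7.63 with miR-143 and of 7.84, 7.61, 7.79 and 7.87 in mock, where only mock replicate 2 lay within the miR-143 range. Its means were 7.53 ± 0.09 (SD, n = 4) and 7.78 ± 0.12 (SD, n = 4), and the log2 fold change was −0.25 (standard error 0.0484, limma with pairs, adjusted p = 0.0443, and 1 without). The call of SEPSECS ended with any pair left out (0.0973 to 0.224). It also ended with every probe set fitted (limma with pairs, adjusted p = 0.0517). The chosen probe set of SEPSECS was dim, with a mean of 7.65, near the median level of all genes (percentile 52.5). PSTK had log2 values of 8.48, 8.41, 8.45 and 8.39 with miR-143 and of 8.60, 8.53, 8.54 and 8.59 in mock, so that the groups did not overlap. Its means were 8.43 ± 0.04 (SD, n = 4) and 8.56 ± 0.04 (SD, n = 4), and the log2 fold change was −0.13 (standard error 0.0485, limma with pairs, adjusted p = 0.39, and 1 without). Replicate 4 did not stand apart in PSTK, and without mock replicate 4 its log2 fold change was −0.12 and that of SEPSECS −0.22.

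SARS1, the cytosolic seryl-tRNA synthetase that also serves the selenocysteine tRNA, had a log2 fold change of −0.15 (limma with pairs, adjusted p = 0.545), with 3 of 4 differences negative and 0.11 in replicate 4. Of 5 other genes of selenoprotein synthesis 4 were negative, and the median was −0.080. Of these limma called 0 with or without pairs (1 lower at an unadjusted p under 0.05 with pairs, 0 without). SEPHS2, which makes the selenium donor, had −0.18 (adjusted p = 0.39 with pairs), and SECISBP2, which binds the selenocysteine element of messenger RNAs, had −0.10 (limma with pairs, adjusted p = 0.597). SEPHS1 had a log2 fold change of −0.08 and TRNAU1AP, which binds the selenocysteine tRNA, of −0.04. Without mock replicate 4 the median of the 5 genes was 0.018, and without replicate 4 of both groups −0.065.

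The other enzymes of the multisynthetase complex had small negative changes. All 5 measured members of the complex were negative, with a median of −0.138, and EPRS1 was the 1 called with pairs (0.623% of all genes were). The median was −0.042 without mock replicate 4, with 4 of 5 negative, −0.149 without replicate 4 of both groups, and −0.048 after cyclic loess. The lysine enzyme KARS1 had a log2 fold change of −0.14, the leucine enzyme LARS1 of −0.14 and the isoleucine enzyme IARS1 of −0.13 (limma with pairs, adjusted p = 0.452, 0.494 and 0.394). IARS1 was lower with miR-143 in all 4 pairs, with differences of −0.22 to −0.08. The arginine enzyme RARS1 had −0.08 (limma with pairs, adjusted p = 0.668). AIMP1, a scaffold of the complex, had a log2 fold change of −0.13 (limma with pairs, adjusted p = 0.546). The list of scaffolds and of editing and correcting enzymes had 7 measured genes, of which 7 were negative and limma called 0 with or without pairs (0 also at an unadjusted p under 0.05). They included MTFMT at −0.10, which puts the formyl group on mitochondrial methionyl-tRNA, GATB at −0.10, which helps to turn glutamyl-tRNA into glutaminyl-tRNA in mitochondria, and DTD1 at −0.09, which removes D-amino acids from tRNA. The median of this list was −0.094, without mock replicate 4 it was −0.010, and without replicate 4 of both groups −0.099.

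The remaining cytosolic synthetases lay between −0.11 and 0.05. The cysteine enzyme CARS1 had −0.11, the asparagine enzyme NARS1 and the threonine enzyme TARS1 −0.09 each, and the glycine enzyme GARS1 −0.09. The GARS1 value rests on replicate 2, with a difference of −0.41, against −0.01 to 0.05 in the other 3. WARS1, the tryptophan enzyme known to be induced by interferon, had a log2 fold change of −0.09, with 2 of 4 differences negative. AARS1, for alanine, had −0.06, with differences of −0.25 to 0.14. The 2 subunits of the phenylalanine enzyme had changes near 0, at 0.02 for FARSA and −0.02 for FARSB. VARS1, for valine, had 0.01, with differences from −0.34 to 0.28 over the 4 numbers. HARS1, the histidine enzyme, had the highest value of the class, 0.05 (limma with pairs, adjusted p = 0.865), with log2 values of 10.45, 10.41, 10.19 and 11.07 with miR-143 and 10.36, 10.47, 10.26 and 10.83 in mock. Its 2 positive differences were in replicates 1 and 4, and with replicate 4 of both groups left out the log2 fold change was −0.01.

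Among the mitochondrial enzymes below RARS2 in size of change, 0 passed the test with pairs. NARS2, for asparagine, had a log2 fold change of −0.14 and lay lower with miR-143 in all 4 pairs, with differences of −0.18 to −0.07 (limma with pairs, adjusted p = 0.354). AARS2, for alanine, also lay lower in all 4, with differences of −0.09 to −0.04, with a log2 fold change of −0.07. CARS2 had −0.11, HARS2 −0.10, YARS2 −0.09, LARS2 −0.07 and VARS2 −0.07. PARS2, the mitochondrial proline enzyme, had −0.06, FARS2 −0.04 and WARS2 −0.03. MARS2, the mitochondrial methionine enzyme, had 0.02. SARS2, the mitochondrial serine enzyme, had the highest value of the 34 genes, 0.07 (limma with pairs, adjusted p = 0.78). The log2 values of SARS2 were 7.60, 7.73, 7.64 and 7.62 with miR-143 and 7.63, 7.56, 7.67 and 7.46 in mock, so the groups overlapped, and replicate 4 was the lowest mock array rather than the highest.

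Cytosolic and mitochondrial enzymes were then set side by side for the 13 amino acids with a separate measured gene for each compartment, phenylalanine with its 2 cytosolic subunits apart. EPRS1 was the cytosolic gene for both glutamate and proline. Both genes were negative for 10 of the 13. The mitochondrial gene had the lower log2 fold change for 6 and the cytosolic gene for 7, and the median of mitochondrial minus cytosolic was 0.0010. The difference kept 1 sign over all 4 replicate numbers for 6 amino acids. It was widest for proline, where PARS2 lay above EPRS1 by 0.38 (0.07 to 0.56 over the 4 numbers). For arginine the mitochondrial RARS2 lay below the cytosolic RARS1, with a difference of −0.25 between the fold changes, from −0.32 to −0.21 over the 4 numbers. For histidine HARS2 lay below HARS1, with differences of −0.27 to −0.01. The cytosolic gene was also the lower for tyrosine, where the difference was 0.20 (0.0023 to 0.37), serine, 0.22 (0.05 to 0.43), and leucine, 0.07 (0.0088 to 0.15). For glutamate, with both genes called with pairs, the difference was −0.11, and it changed sign between numbers, from −0.39 to 0.08. These differences set 2 probe sets against each other and carry no test.

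**Figure D3:**
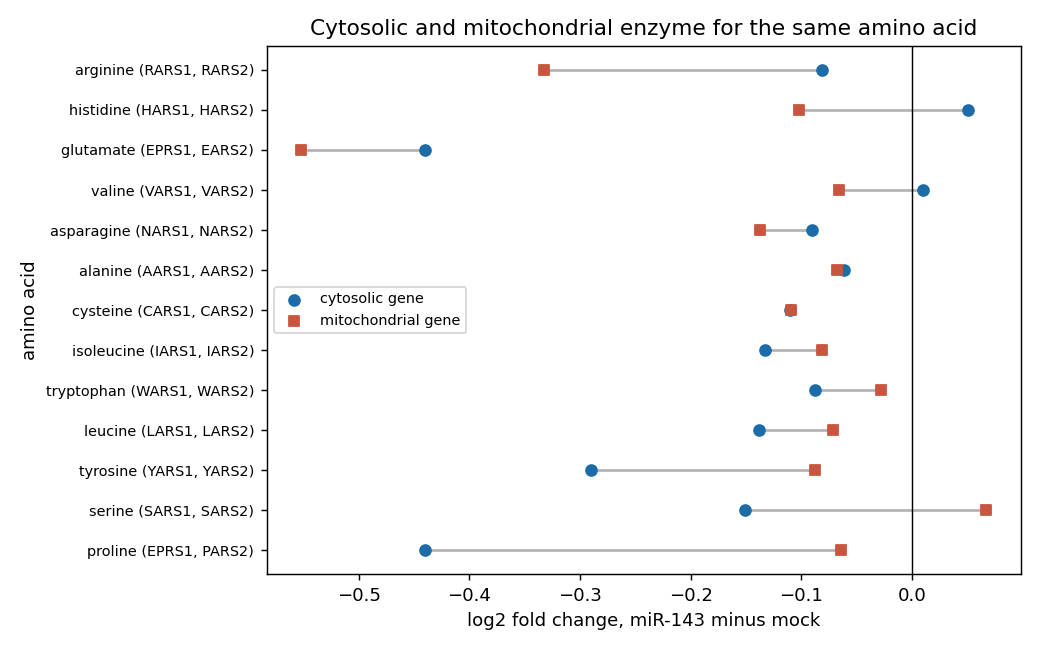
Log2 fold change (x axis) of the cytosolic gene (circle) and the mitochondrial gene (square) for each of 13 amino acids (y axis), in order of their difference. Arginine is at the top with −0.08 for RARS1 and −0.33 for RARS2, and proline at the bottom with −0.44 for EPRS1 and −0.06 for PARS2.

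HARS1 and HARS2 are neighbours on chromosome 5 with opposite orientation, at chr5:140673905-140691370 and chr5:140691455-140699305, and 84 bases lie between them. Their promoter windows share 184 bases, and the window of HARS2 (plus strand, chr5:140691205-140691504, RefSeq on GRCh38.p14) is printed because it covers the stretch from which both genes start. Capitals mark the ETS core on either strand.
HARS2: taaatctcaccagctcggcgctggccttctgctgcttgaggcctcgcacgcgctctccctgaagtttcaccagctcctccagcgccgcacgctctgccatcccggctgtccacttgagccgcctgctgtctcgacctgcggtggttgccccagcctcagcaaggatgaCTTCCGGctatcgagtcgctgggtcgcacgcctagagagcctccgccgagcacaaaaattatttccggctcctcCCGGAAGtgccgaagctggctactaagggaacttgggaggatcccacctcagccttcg
The window held 2 ETS cores, 1 on each strand, both within the part shared with HARS1. The log2 fold changes of the 2 genes were 0.05 and −0.10, and neither passed the test with or without pairs.

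The same motifs were counted in the windows of the genes on the list that the promoter table used here holds, 31 of 37. Windows of the other 6, YARS1 and SEPSECS among them, were not analysed here. A single window was read per gene, and other transcription starts were not searched. The windows of CARS1, CARS2, FARS2 and WARS1 lie within the gene, away from its 5′ end, and that of CARS2 holds an ETS core. An ETS core was in 14 of the 31 windows, 7 of 16 cytosolic and 7 of 14 mitochondrial, which is 45.2%, against 10.6% of all 27305 windows and 14.2% of the 15390 windows of genes measured here. The windows of HARS1 and HARS2 share 184 bases and the same ETS cores, so that stretch was counted in both classes. The 31 windows include those of MARS1, QARS1 and TARS2, which were not measured. The core of the ATF4 response element was in 5 windows, of AARS1, IARS1, MARS1, NARS1 and YARS2, which is 16.1%, against 3.75% of all windows and 2.7% of those of measured genes. An E-box was in 3, of IARS1, EARS2 and MARS2, which is 9.68%, against 7.27% and 8.55%. These are matches of letters, and binding was not measured.

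By replicate number, the median difference over the 34 genes was −0.087, −0.108, −0.140 and −0.061 for replicates 1 to 4, against −0.0044, −0.0060, −0.027 and −0.0038 over all genes. The cytosolic enzymes had −0.093, −0.101, −0.151 and −0.041, and all 17 were negative in replicate 3 but 9 of 17 in replicate 4. The mitochondrial enzymes had −0.065, −0.087, −0.089 and −0.053, with 11 or 12 of 15 negative in each. Of the 34 genes 10 were lower with miR-143 in all 4 pairs and 0 were higher in all 4. Of all genes 10.9% were lower in all 4, and of the genes above the median level 15.4% were. The 10 genes were EPRS1, IARS1, LARS1 and YARS1, then AARS2, EARS2, NARS2 and RARS2, and SEPSECS and PSTK.

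**Figure D4:**
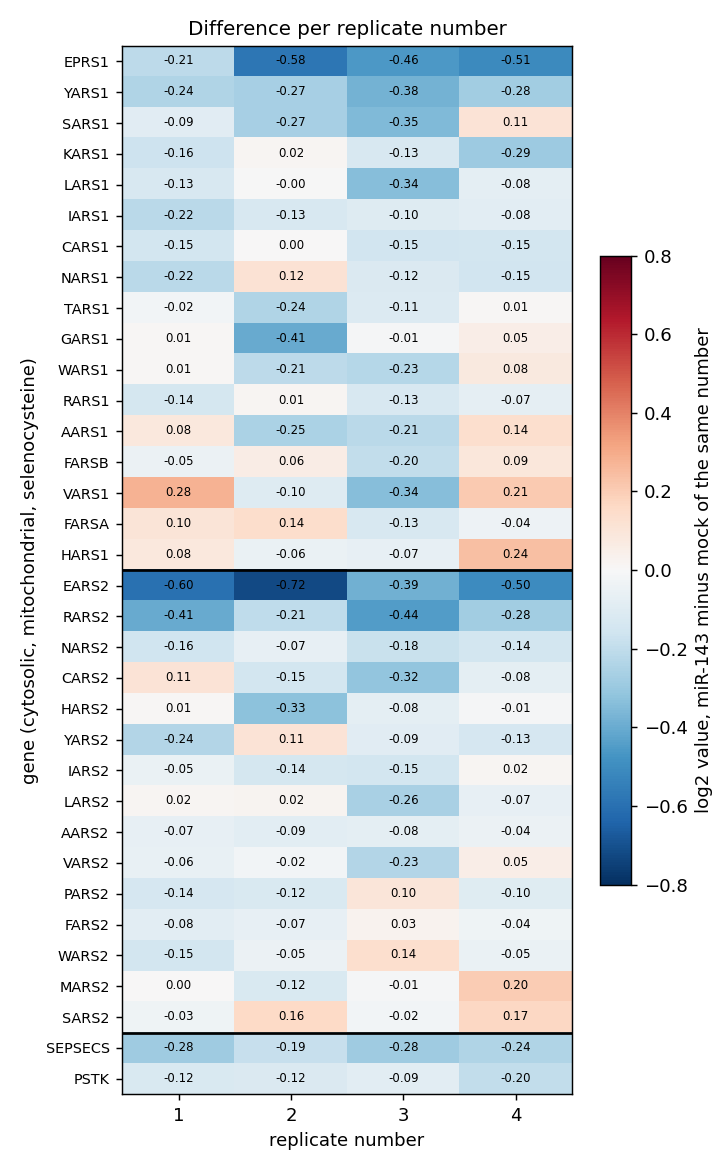
Difference of log2 values, miR-143 minus the mock array of the same replicate number (x axis), for the 34 genes (y axis), with black lines between the cytosolic, mitochondrial and selenocysteine classes. Blue cells are negative and red cells positive. The rows of EPRS1, IARS1, LARS1, YARS1, AARS2, EARS2, NARS2, RARS2, SEPSECS and PSTK are negative in all 4 columns.

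Other probe sets of the called genes differed from the chosen one in size. Of the 34 genes 20 had more than 1 probe set, and for 16 of them all probe sets had the same sign. The 40 other probe sets had a median log2 fold change of −0.055, 35 of them were negative, and with every probe set fitted and with pairs limma called 0 of the 40 (5 lower at an unadjusted p under 0.05 with pairs). EARS2 had −0.14, −0.10 and −0.07 in its 3 other probe sets against −0.55 in the chosen one. EPRS1 had −0.07 in a probe set about as bright as the chosen one, with a mean of 11.54 against 11.59, and −0.35 in the dimmest one at 9.93. RARS2 had −0.26 in its second brightest probe set, at 10.00, and −0.14 to 0.06 in 4 dim ones, with means of 6.47 to 7.18. YARS1 had −0.02 in its other probe set, at 7.85 against 11.74. SEPSECS had −0.19 in 1 and −0.03 to about 0 in 3 of its 4 other probe sets, and PSTK had −0.05. With all probe sets of each gene averaged, 0 of the 34 genes was called with pairs, and the adjusted p from limma was 0.111 for both EARS2 and EPRS1. Such a mean takes in dim probe sets, and whether the probe sets of a gene read different transcripts was not tested.

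**Figure D5:**
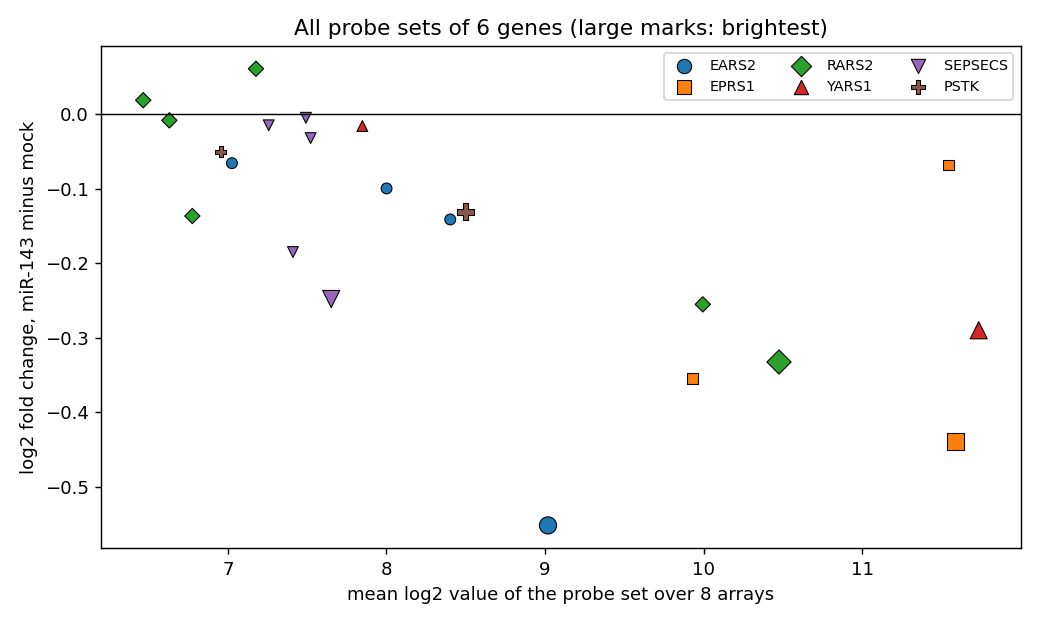
Log2 fold change (y axis) against the mean log2 value over 8 arrays (x axis) for all probe sets of 6 genes, with the chosen probe set as the large mark. The chosen probe set of EARS2 is at −0.55, and its 3 other probe sets lie between −0.14 and −0.07.

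In neighbouring steps of protein synthesis the medians were also small. All 11 measured synthetases of a list of ATF4 targets were negative, and EPRS1 and YARS1 were the 2 called with pairs. With pairs limma called 0.623% of all genes lower, and 1.25% of those above the median level. The median of the 11 was −0.110, and without mock replicate 4 it was −0.005, with 7 of 11 negative. Without replicate 4 of both groups it was −0.142, and after cyclic loess −0.037. ATF4 itself had a log2 fold change of −0.16 (limma with pairs, adjusted p = 0.376). Of 25 genes of the integrated stress response 20 were negative, the median was −0.060, and limma called 0 with or without pairs (5 lower at an unadjusted p under 0.05 with pairs, 0 without). Of all genes 55.6% were negative, and 6.92% were lower at that unadjusted p with pairs. Of the 9876 genes above the median level 64.3% were negative, and 1228 were lower at that unadjusted p with pairs. The amino acid transporter subunits SLC7A5 and SLC7A11 had −0.18 and −0.14, and EIF2S1, the subunit of eIF2 that is phosphorylated in this response, had −0.14. Without mock replicate 4 the median of the 25 was 0.018, and without replicate 4 of both groups −0.061. Of 10 mitochondrial translation factors 10 were negative, the median was −0.073, and limma called 0 with or without pairs (1 lower at an unadjusted p under 0.05 with pairs, 0 without). They were led by the ribosome recycling factor MRRF at −0.16 and the elongation factors GFM1 at −0.13 and TSFM at −0.09, with the initiation factor MTIF2 at −0.08. Their median was −0.032 without mock replicate 4, with 6 of 10 negative, −0.047 without replicate 4 of both groups, and −0.023 after cyclic loess, and in replicate 2 by itself 4 of 10 were negative. Of 5 cytosolic elongation factors 4 were negative, the median was −0.049, and limma called 0 with or without pairs (0 also at an unadjusted p under 0.05). EEF1A1, which delivers charged tRNA to the ribosome, had −0.09, EEF2 −0.05 and EEF1D −0.03, and EIF5A had −0.19 with 2 of 4 differences negative. The median of these 5 turned to 0.031 without mock replicate 4 and to 0.016 after cyclic loess, and was −0.058 without replicate 4 of both groups.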

How the data were processed

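DLD-1 cells with miR-143 duplex (4 arrays) and mock-transfected cells (4 arrays) were compared. The deposited log2 values, 1 per probe set and array, were made by the authors with RMA in the affy package, whose versions are not given in the sources used here, and were used as deposited. RMA shrinks differences of dim probe sets. Arrays have no read depth, and their number sets the precision. Of 54675 probe sets 41091 carried 1 gene symbol, 1801 several and 11721 none, and 62 were controls. Symbols were updated by Entrez identifier or older symbol, and each of 19752 genes was read from its brightest probe set.

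The test was limma 3.58.1 in R 4.3.3 (linear model with moderated variance, two-sided), with Benjamini-Hochberg adjustment across the whole set of genes and 0.05 as the threshold. Every adjusted p in the text is from limma. Tables and figures were made with Python 3.11.15, numpy 2.4.6, pandas 2.3.3 and matplotlib 3.10.9. The fits were tested on simulated data. There all pairs were equally correlated, unlike the replicate numbers here, so the simulation does not cover the pairing in these data. The methods name no block, so the main fit has none. Both groups carry replicate numbers 1 to 4, described as biological replicates, and the numbers were taken as pairs if, for every number, the deviations of its 2 arrays from their groups correlated above 0.1. The correlations over genes were 0.11, 0.17, 0.58 and 0.81, the first close to that limit, so the pairing comes from the data. Values with pairs are printed where they change a call, and also for other named genes whose call they do not change. For numbers 1 and 2 another number correlated better, at up to 0.54.

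The members and gene lists were chosen with earlier results of these data known. All 34 genes are named. Full values are given for genes with an unadjusted p under 0.05 without pairs, called with pairs, or with groups that do not overlap, for EPRS1 and EARS2, and for the lowest and highest of each class, and up to 4 genes of lowest p with pairs are named in other lists. Alternatives were each array and each pair left out, cyclic loess, the mean over probe sets, every probe set fitted, filters on level and on interquartile range, array weights, an intensity trend and an exact permutation test.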

Additional observations from a re-analysis of the deposited data

Results flagged for a closer look

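Each group of 4 arrays was checked for an array far from the other 3, in 116 groups of 58 genes. In all 6 were found, 5 of them in replicate 4. The limit used flags about 1 in 20 independent groups by chance. These groups come from the same arrays and are not independent, so that share cannot serve as a measure of chance here. In mock, replicate 4 stood far above the rest for FARSB (12.03 against 11.66 to 11.70), SARS1 (11.45 against 10.88 to 10.95) and YARS1 (12.16 against 11.77 to 11.80). In miR-143, replicate 4 did so for VARS2 (9.86 against 9.32 to 9.38) and for the elongation factor EEF1A1 (15.13 against 14.52 to 14.59). RPP40, a subunit of RNase P, lay low in miR-143 replicate 3, at 9.41 against 9.55 to 9.57. Replicate 4 of both groups also stood apart over all genes, and its part in these values was not tested further.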

How the results depend on the processing

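The comparison without pairs called 0 of the 34 genes and 0 of all genes, lower or higher. With the replicate number as a block it called 5 of the 34 lower, and of all genes 123 lower and 33 higher. With each pair left out in turn under the block there were 1 to 2 of the 34, and of all genes 57, 68, 33 and 42 lower and 16, 11, 9 and 16 higher for pairs 1 to 4. Without the block and without pair 4 (chosen, like the other settings that combine 2 choices, after seeing the data) there were 1 of the 34, and 30 lower and 13 higher of all genes. Cyclic loess gave 1 of the 34, with 31 lower and 21 higher of all genes, and with the block 4 of the 34, with 78 and 51. Array weights gave 1 of the 34, with 36 and 20. The mean over probe sets with the block gave 0 of the 34, with 35 and 3. Every setting without the block that called 1 of the 34 called EARS2. Leaving out 1 array without the block, every probe set fitted, the filters, the intensity trend and the mean over probe sets without the block called 0 of the 34. No setting called any of the 34 higher.

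The cytosolic median of −0.090 was −0.029 after cyclic loess, with or without the block, and ran from −0.198 (without miR-143 replicate 4) to 0.027 (without mock replicate 4) with 1 array left out. The mitochondrial median of −0.071 was −0.046 after cyclic loess, with or without the block, and −0.102 over the 5 genes with an interquartile range above 0.25, and ran from −0.148 to −0.011 with the same arrays left out. HARS1 turned from 0.05 to −0.13 without miR-143 replicate 4, to −0.022 without mock replicate 3, and to −0.013 without pair 4 with or without the block, and with 1 array left out it ran from −0.13 to 0.17. Of the other values of 8 named genes, 191 kept their direction and their side of the threshold and 18 kept the direction and passed the threshold. The block, every probe set fitted, the filters, the intensity trend and the permutation test leave a log2 fold change unchanged, so they could not turn its direction. With a smallest p of 0.0286, the exact permutation test could hardly pass the threshold after adjustment.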

Other observations

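Genes of tRNA maturation and export, which act before charging, lay slightly lower with miR-143. Of 22 measured genes 20 were negative, with a median log2 fold change of −0.097, and limma called 0 with or without pairs (5 lower at an unadjusted p under 0.05 with pairs, 0 without). Of all genes 55.6% were negative, of those above the median level 64.3%, and 6.92% of all genes were lower at that unadjusted p with pairs. Among the 9876 genes above the median level 1228 were lower at that unadjusted p with pairs. TSEN15, a subunit of the tRNA splicing endonuclease, had −0.18 (adjusted p = 0.201 from limma with pairs), and SSB, the La protein that binds new tRNA transcripts, had −0.18 (0.284). RPP40 had −0.17 (0.338), with all 4 miR-143 arrays below the mock arrays, as in 1.24% of all genes. XPOT, which exports tRNA from the nucleus, had −0.16 (0.349). Without mock replicate 4 the median of the 22 genes was −0.028, with 16 negative, and without replicate 4 of both groups it was −0.092.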
